A study of Homo sapiens with 40 samples.

Results

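Single T47D cells prepared with the Takara protocol were ordered by how much mitotic RNA they held, and the 5 highest cells were set against the 5 lowest. Each cell was given a score, the mean of log2(CPM + 1) over TOP2A, CDK1, CCNB1, CCNB2, AURKA, PLK1, CENPF and UBE2C, where CPM is the reads of a gene scaled to a common library total of reads on genes. Of 13 Takara cells, wells C2 and F1 were left out and 11 were scored. The 5 highest were taken as mitotic-high and the 5 lowest as mitotic-low, so the 2 groups hold 10 of the 40 cells of the series, and cell D2 in the middle belonged to neither. Because the groups were selected on the values of these 8 genes, those genes describe the selection and are not a result of it. All other genes come from the same libraries and tend to move with the score, so every difference below is a description and carries no test.

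T47D is a human luminal breast cancer line that carries estrogen and progesterone receptors. All 40 cells were T47D cells at passage 10, with no treatment or genotype that set any of them apart. They were sorted singly into lysis buffer as live cells positive for EpCAM and integrin α6 and negative for CD45 and CD31. The Takara cells were made into full-length poly(A) cDNA libraries with the SMART-seq HT kit and sequenced in 1 run, and the same amount of ERCC spike-in RNA was put into each well. Mitotic-high and mitotic-low cells therefore shared cell line, passage, kit and run, and they are single cells and not replicates of a condition. CPM gives the share of a gene in the reads of a cell. A rise in a transcript and a fall in the rest of the RNA cannot be told apart from CPM alone.

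A dividing cell copies its DNA in S phase and then builds, in G2, the machinery that will part the chromosomes. Cyclins A and B drive cyclin-dependent kinase 1, Aurora and Polo kinases mature the spindle poles and correct faulty attachments, kinetochores tie chromosomes to microtubules, kinesins slide and shorten these, and the anaphase-promoting complex then marks securin and the cyclins for destruction. Transcripts of this machinery accumulate together late in the cycle, under the MuvB complex with B-MYB and FOXM1, and are low in G1. T47D cells in culture cycle without synchrony, so a set of single cells samples many positions in the cycle.

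The libraries of the groups were alike in depth. Reads on genes ran from 884209 to 1287911 in the mitotic-high cells and from 952689 to 1263792 in the mitotic-low cells, with 818512 in D2, so that 1 read was worth 0.776 to 1.22 CPM. A count of 0 allows up to 3 reads, or 2.33 to 3.67 CPM, and such limits and all intervals given here cover counting error only, since the reads carry no molecular identifiers. Genes with at least 1 read numbered 10855 to 11643 in high cells and 10624 to 11855 in low cells. The difference of the group means in genes detected per cell, 132, changed sign without low cell D1, to -1.85. Mitochondrial reads made up 8.29% to 11.1% of the library in high cells and 7.84% to 13.2% in low cells, and ribosomal protein genes 3.81% to 5.35% and 4.85% to 5.55%. Low cell B1 stood apart from the other low cells in its unassigned reads, with 7.27% on no annotated feature against 1.97% to 3.08%, and the part of this in its values was not tested.

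Reads on genes per ERCC read, a measure of how much RNA a cell gave against a fixed input, were 185 in A2, 138 in C1, 145 in E1, 101 in A1 and 78.7 in B2. In the mitotic-low cells they were 104 in B1, 135 in H1, 74.3 in D1, 85.7 in E2 and 82.6 in G1. The 3 cells of highest score were also the 3 highest in this ratio, but the groups overlapped, with means of 130 ± 41.1 and 96.3 ± 24.1 (SD, n = 5 cells each).

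The label of luminal cells was checked against marker genes. All 8 luminal markers had reads, with a summed level of 10208 to 17542 CPM in high cells and 16358 to 26747 CPM in low cells. Immune cell markers were nearly absent: PTPRC, CD3E, CD68 and LYZ were at 0, 1 of 5 markers had reads, and the sum was 4.68 to 23.2 CPM in high cells and 0 to 22.0 CPM in low cells. None of the 4 endothelial markers had a read. Among 5 fibroblast markers COL1A2, COL3A1 and DCN were at 0, and the sum was 0 to 20.96 CPM against 2.10 to 48.5 CPM. Among 4 basal markers KRT5 and KRT14 were at 0, and the sum was 2.80 to 97.3 CPM against 6.46 to 141 CPM.

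The score itself spread over a wide range. It was 10.43 in A2, 10.21 in C1, 9.83 in E1, 8.10 in A1 and 8.02 in B2, and 6.64 in B1, 6.59 in H1, 4.18 in D1, 3.29 in E2 and 2.19 in G1. The cell just inside the high group was thus B2, the cell left out between the groups was D2 at 7.21, and the cell just inside the low group was B1. Leaving any 1 of the 8 genes out of the score left all 10 cells in their groups.

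PLK1, the Polo kinase of mitotic entry, was at 1232 CPM in A2, 845 in C1, 551 in E1, 112 in A1 and 261 in B2, against 20.6 in B1, 61.4 in H1 and 0 in D1, E2 and G1. TOP2A, the topoisomerase that disentangles sister chromatids, was at 176 to 1383 CPM in high cells and 0 to 98.0 CPM in low cells. These 2 genes, AURKA and CENPF did not overlap between the groups, while the other 4 score genes did. CCNB1, cyclin B1, was at 2347 CPM in A2, 2263 in C1, 1609 in E1, 304 in A1 and 1883 in B2, yet at 805 CPM in H1, a low cell. CDK1, the kinase it activates, was at 1273 to 1595 CPM in A2, C1 and E1, 686 in A1 and only 40.6 in B2, below the 215 CPM of low cell B1. High cells A1 and B2 were therefore high through different genes, A1 with little CCNB1 and CCNB2 (88.2 CPM) and B2 with little CDK1 and UBE2C (71.5 CPM).

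**Figure D1:**
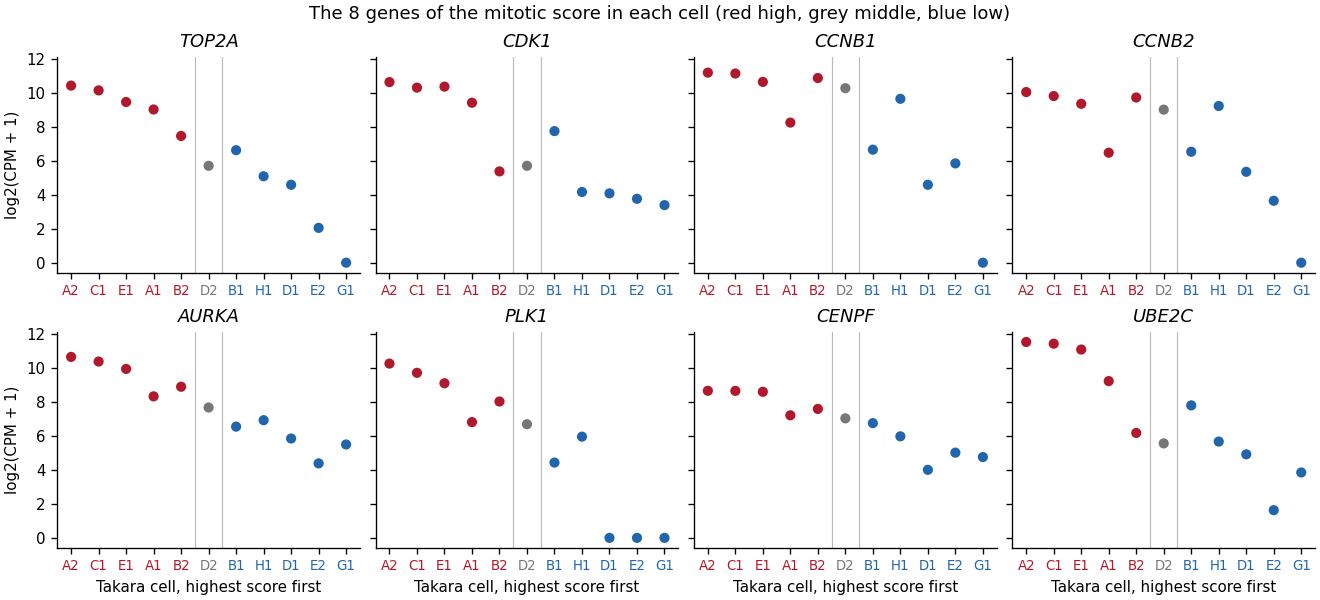
Level of each of the 8 score genes, as log2(CPM + 1), in the 11 Takara cells, ordered from the highest score to the lowest, with high cells in red, D2 in grey and low cells in blue. The genes chose the groups, and 4 of the 8 (CDK1, CCNB1, CCNB2 and UBE2C) still overlap between high and low cells.

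Across the other genes, 7949 had a mean of at least 10 CPM over the 11 cells and were compared. A gene is called higher here when the mean log2(CPM + 1) of the high cells exceeded that of the low cells by at least 1 and the lowest high cell lay above the highest low cell, and lower by the mirrored rule. By this rule 114 genes were higher in mitotic-high cells, 1.43% of the genes compared, and 36 were lower, 0.453%. A difference of at least 1 alone, with overlap allowed, was met by 848 genes upward (10.7%) and 546 downward (6.87%). The 114 higher genes differed by a median of 3.26 on the log2 scale, and the 35 lower genes with a symbol by a median of -1.60. The higher genes lay on 23 chromosomes, and 112 of them were protein coding. The rule by itself requires reads in all 5 high cells for a higher gene. Of the 114, 52 had reads in all 5 low cells and 21 had reads in at most 2 low cells. The lower genes rested on fewer reads. Their median over the 35 with a symbol was 30.0 CPM (mean of 11 cells), beside 69.8 CPM for the higher genes and 43.8 CPM for all genes compared.

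The count of higher genes rested on the cells near the boundary. Without A1 it was 183, without B2 180, without B1 193 and without H1 182, and with the 3 highest against the 3 lowest cells it was 595. The count of lower genes was 57 to 72 when any 1 of the 10 cells was left out. Scaling to ERCC reads in place of reads on genes gave 145 higher and 7 lower genes and moved the median difference of all genes from -0.01 to 0.38, so that 95.4% of the called genes were higher where 76.0% had been.

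**Figure D2:**
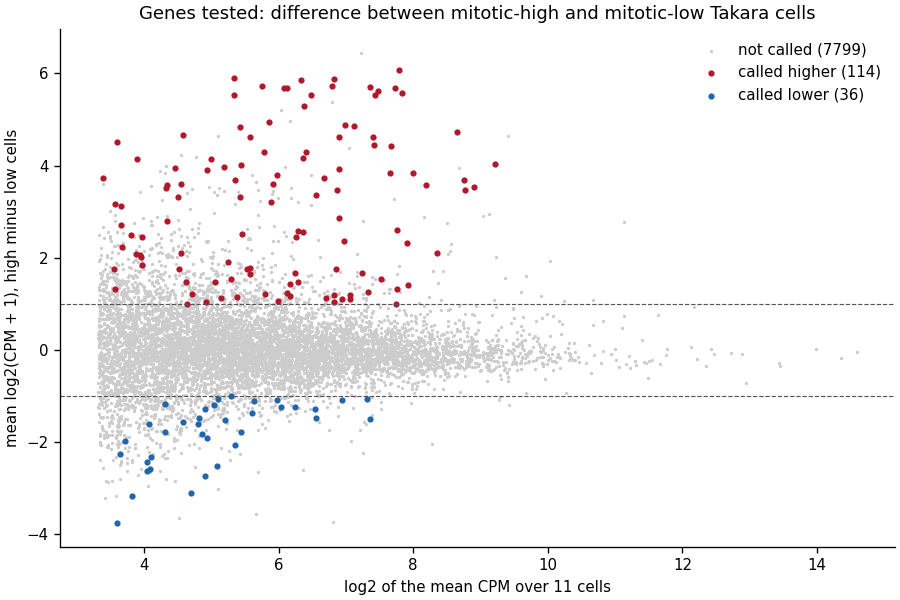
Difference between mitotic-high and mitotic-low cells in mean log2(CPM + 1), against the log2 of the mean CPM over 11 cells, for 7949 genes, with 114 called higher in red, 36 called lower in blue and dashed lines at differences of 1 and -1. The higher genes reach differences above 5, while the lower genes lie between -1 and -4 and mostly at low levels.

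The 12 genes with the largest called difference were all genes of mitosis. CCNA2 (ENSG00000145386; GRCh38 chromosome 4, 121816444 to 121823883, minus strand) encodes cyclin A2, the partner of cyclin-dependent kinases in S phase and G2. It was at 586 CPM in A2, 548 in C1, 406 in E1, 200 in A1 and 309 in B2, against 75.3 in B1, 76.7 in H1 and 0 in D1, E2 and G1. The difference was 6.07, and the reads of each group summed gave 423 CPM (95% exact Poisson interval 406 to 441) and 30.3 CPM (25.9 to 35.2). The 5 low cells fell into a pair with clear reads and 3 with none, and this split returned in many of the genes below.

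PSRC1 (ENSG00000134222; chromosome 1, 109279556 to 109283186, minus strand), whose product binds spindle microtubules, had the fewest low-cell reads of the 12. It was at 148 CPM in A2, 136 in C1, 81.1 in E1, 23.8 in A1 and 52.2 in B2, against 1.78 in D1 and 0 in the other 4 low cells, a sum of 495 reads against 2 (92.6 CPM, 84.6 to 101, against 0.360 CPM, 0.0436 to 1.30). KIF2C, a kinesin that takes microtubule ends apart, was at 147 to 300 CPM in high cells and 16.5 in B1, 37.2 in H1 and 0 in the other low cells. KIFC1, a kinesin that walks to the minus end and focuses spindle poles, was the most even among the high cells of these 12 genes, at 289 CPM in A2, 224 in C1, 200 in E1, 232 in A1 and 165 in B2. Its low cells were uneven, with 79.5 CPM in B1, 14.2 in D1 and 0 in the others. DLGAP5, which bundles spindle microtubules near the chromosomes, was at 124 to 399 CPM in high cells and at most 84.0 CPM, in H1, in low cells. HMMR, a microtubule and hyaluronan binding protein of the spindle, was at 45.2 to 197 CPM against 0 to 10.5 CPM. FAM83D, which brings casein kinase to the spindle, ran from 67.7 CPM in B2 to 1165 CPM in A2, the widest log2 range among the high cells of these 12 genes, and from 0 to 33.9 CPM in low cells.

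At the centromere and kinetochore, CENPA and NDC80 led. CENPA (ENSG00000115163; chromosome 2, 26764289 to 26801067, plus strand), the histone H3 variant that marks centromeres and is made in G2, was at 297 CPM in A2, 99.4 in C1, 136 in E1, 29.4 in A1 and 19.3 in B2. Among low cells it was at 4.85 CPM in H1 and 0 in the other 4, so 637 reads stood against 6 (119 CPM, 110 to 129, against 1.08 CPM, 0.397 to 2.35). NDC80, the subunit that grips microtubules, was at 99.6 to 229 CPM in high cells, with C1 highest, and 10.3 in B1, 16.2 in H1 and 0 in the other low cells. AURKB, the kinase of the chromosomal passenger complex, was at 217 to 529 CPM against 126 in B1, 146 in H1 and 0 in D1, E2 and G1. CEP55, which recruits the machinery that cuts the bridge between daughter cells, was at 138 to 430 CPM against 76.4 in B1, 110 in H1 and 0 in the same 3 cells. DEPDC1B, a DEP domain protein listed here with cytokinesis, was at 70.1 to 186 CPM against 0 to 26.7 CPM. Differences for the 12 genes ran from 5.58 in FAM83D to 6.07 in CCNA2. The strand setting of the counts is not given, and 8 of the 12 overlap another annotated gene. Among these is a protein-coding gene for CCNA2 (EXOSC9) and CENPA (SLC35F6). What the overlap does to their counts was not tested.

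**Figure D3:**
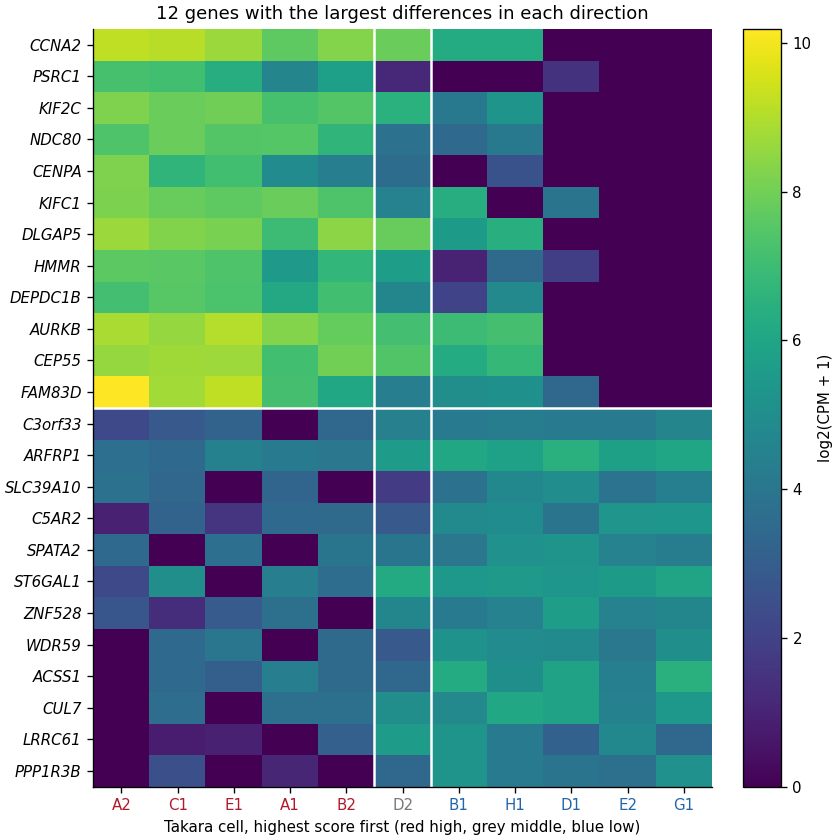
CPM on a log2(CPM + 1) scale, as colour, for the 12 genes of largest called difference in each direction (rows) in the 11 Takara cells (columns, highest score first). Among the higher genes, low cells B1 and H1 hold intermediate levels for many rows where D1, E2 and G1 are at or near 0.

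The promoters of 4 of these genes are shown. They are the first 4, in order of difference, that held both of the following elements, known for late cell cycle genes, before the start. The CCAAT box is bound by NF-Y, and the cell cycle genes homology region (CHR), here searched as TTTGAA or TTCGAA, is bound by MuvB complexes. The 200 bases before the annotated start are given 5′ to 3′ on the gene's strand, from RefSeq on GRCh38.p14, with capitals marking CCAAT or CHR letters on either strand (ATTGG and TTCAAA in reverse). The windows are chr1:109283146-109283345 on the minus strand for PSRC1, chr2:26785856-26786055 on the plus strand for CENPA, chr14:55191586-55191785 on the minus strand for DLGAP5 and chr5:163460432-163460631 on the plus strand for HMMR.
PSRC1: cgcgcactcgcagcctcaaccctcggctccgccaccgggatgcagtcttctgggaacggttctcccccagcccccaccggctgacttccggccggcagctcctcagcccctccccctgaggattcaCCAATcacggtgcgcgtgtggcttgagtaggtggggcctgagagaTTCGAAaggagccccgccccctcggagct
CENPA: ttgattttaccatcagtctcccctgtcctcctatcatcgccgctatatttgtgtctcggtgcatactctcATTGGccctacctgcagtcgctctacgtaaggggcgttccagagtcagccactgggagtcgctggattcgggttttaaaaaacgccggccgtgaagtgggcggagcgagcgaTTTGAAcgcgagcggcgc
DLGAP5: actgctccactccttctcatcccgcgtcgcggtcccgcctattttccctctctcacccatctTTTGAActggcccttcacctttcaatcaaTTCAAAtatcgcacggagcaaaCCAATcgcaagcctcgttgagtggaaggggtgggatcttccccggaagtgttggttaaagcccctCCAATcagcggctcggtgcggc
HMMR: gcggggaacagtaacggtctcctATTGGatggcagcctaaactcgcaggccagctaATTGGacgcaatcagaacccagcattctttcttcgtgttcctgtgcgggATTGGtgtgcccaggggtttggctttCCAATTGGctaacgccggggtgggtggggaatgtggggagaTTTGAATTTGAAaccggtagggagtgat

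In these windows PSRC1 held a CCAAT box that began 74 bases before the start and a CHR that began 29 bases before it, and CENPA held them at 130 and 18 bases. HMMR held 5 CCAAT matches, counting both strands of an overlapping pair, and 2 adjoining CHR matches, while DLGAP5 held 2 of each. These higher genes were shown because they hold both elements, so they do not stand for all genes of largest difference. KIF2C, another of those, held neither element as searched. CCNA2 and AURKB held no match to the CHR letters searched, and NDC80 held no CCAAT box. Other forms of the CHR were not searched. The promoter of LRRC61, a lower gene taken without regard to the elements, held neither (chr7:150323155-150323354, plus strand).
LRRC61: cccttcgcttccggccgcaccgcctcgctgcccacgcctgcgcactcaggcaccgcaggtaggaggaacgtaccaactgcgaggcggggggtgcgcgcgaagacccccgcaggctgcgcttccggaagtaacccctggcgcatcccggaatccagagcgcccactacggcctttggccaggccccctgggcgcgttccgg

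Over windows of 300 bases, 250 before and 50 after the start, 92 of the 114 higher genes had a promoter in the RefSeq set used. Of these, 65.2% (60) held a CCAAT box, 48.9% (45) a CHR and 38.0% (35) both. Among the promoters of 6524 genes compared the shares were 38.7%, 11.1% and 4.98%, and among all 27305 promoters of the set they were 35.7%, 16.6% and 6.58%. The 46 higher genes that were outside every list used here and had a promoter held a CCAAT box in 63.0%, a CHR in 32.6% and both in 28.3%. Of 26 lower genes with a promoter, 15.4% (4) held a CCAAT box, 19.2% (5) a CHR and 7.69% (2) both. Promoters of 53 S phase genes held CCAAT boxes in 54.7% but CHRs in 7.55%, whereas the 91 G2 and mitosis genes with a promoter held them in 63.7% and 64.8%. A match of letters is not a bound site.

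Of 108 other G2 and mitosis genes put on a list by their known role, 105 were compared, and 53 were called higher, beside 1.43% of all genes compared, and none lower. A difference of at least 1 was met by 98, beside 10.7% of all genes, and 102 lay above 0. The median difference was 3.59, beside -0.01 over all genes. In the mean log2(CPM + 1) over the list the groups did not overlap. It was 7.67 in A2, 7.40 in C1, 7.47 in E1, 6.47 in A1 and 6.35 in B2, then 5.49 in D2, and 5.29 in B1, 5.05 in H1, 3.30 in D1, 2.16 in E2 and 2.35 in G1. The list was close in kind to the genes of the score, so it shows how far the selection reaches through the mitotic programme and is no independent evidence of its direction.

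Kinesins and spindle proteins had the highest median difference of the 7 roles in the list, 4.47, with 19 of 28 genes called higher. Beyond those named, NUSAP1, which crosslinks spindle microtubules, was at 359 to 1247 CPM in high cells and 0 to 228 CPM in low cells. KIF11, the motor that pushes the spindle poles apart, was at 110 to 406 CPM against 0 to 77.4 CPM. TPX2, the activator of Aurora A on the spindle, was at 381 to 1285 CPM against 19.8 to 185 CPM and was read in every cell. Of kinetochore and checkpoint genes 12 of 23 were called, with a median of 3.88, and the checkpoint genes BUB1B (4.29) and TTK (3.68) were among them. In the chromosomal passenger complex and its partners 3 of 6 were called (AURKB, CDCA8 and BIRC5), with a median of 3.49.

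Cyclins, CDK regulators and transcription factors had 5 of 14 genes called and a median of 3.62. CKS2, a small subunit that docks on cyclin-dependent kinases, was at 1601 CPM in A2, 1400 in C1, 1369 in E1, 353 in A1 and 1017 in B2, against 33.7 to 127 CPM in low cells. The phosphatase gene CDC25C (14.7 to 79.5 CPM against 0 to 10.5 CPM) and the kinase gene WEE1 (7.92 to 78.6 CPM against 2.42 to 5.54 CPM), which act against each other on CDK1, were both higher. FOXM1 and MYBL2, whose products drive late cell cycle transcription, differed by 1.51 and 2.30 with overlapping groups, and are named outside the rule, after their values were seen. Cytokinesis genes were called in 4 of 7 cases with a median of 3.47.

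Genes of chromosome structure and the nuclear envelope had 9 of 18 called and a median of 2.14. The proliferation marker MKI67 was at 86.0 to 199 CPM in high cells against 84.6 in B1, 82.4 in H1, 10.7 in D1, 0 in E2 and 6.33 in G1, so that the groups parted by less than 2 CPM. Among the ubiquitin ligase, securin and separase genes only separase, ESPL1 (4.01), was called of 9, and the median was 1.16. The 3 compared core subunits of the anaphase-promoting complex differed by -0.35 (ANAPC4), 0.03 (CDC16) and 0.63 (CDC27), and its G1 activator FZR1 by -0.14, values picked out after they were seen. The other activator, CDC20, made in G2, differed by 4.63, and low cell H1, at 674 CPM, stood above high cell A1, at 120 CPM.

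Of 45 genes of the list that differed by at least 1 without being called, the highest low cell was B1 in 21 and H1 in 20, and the lowest high cell was B2 in 21 and A1 in 20. The gene with the greatest difference of all, KIF20A at 6.45, was one of them, and is named here after its value was seen. These were the 4 grouped cells nearest to the boundary of the score. D2, the cell between the groups, took no single side: for the 114 higher genes it lay within the range of the high cells in 35, within that of the low cells in 49 and between the ranges in 26, and it lay beyond them in the other 4.

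**Figure D4:**
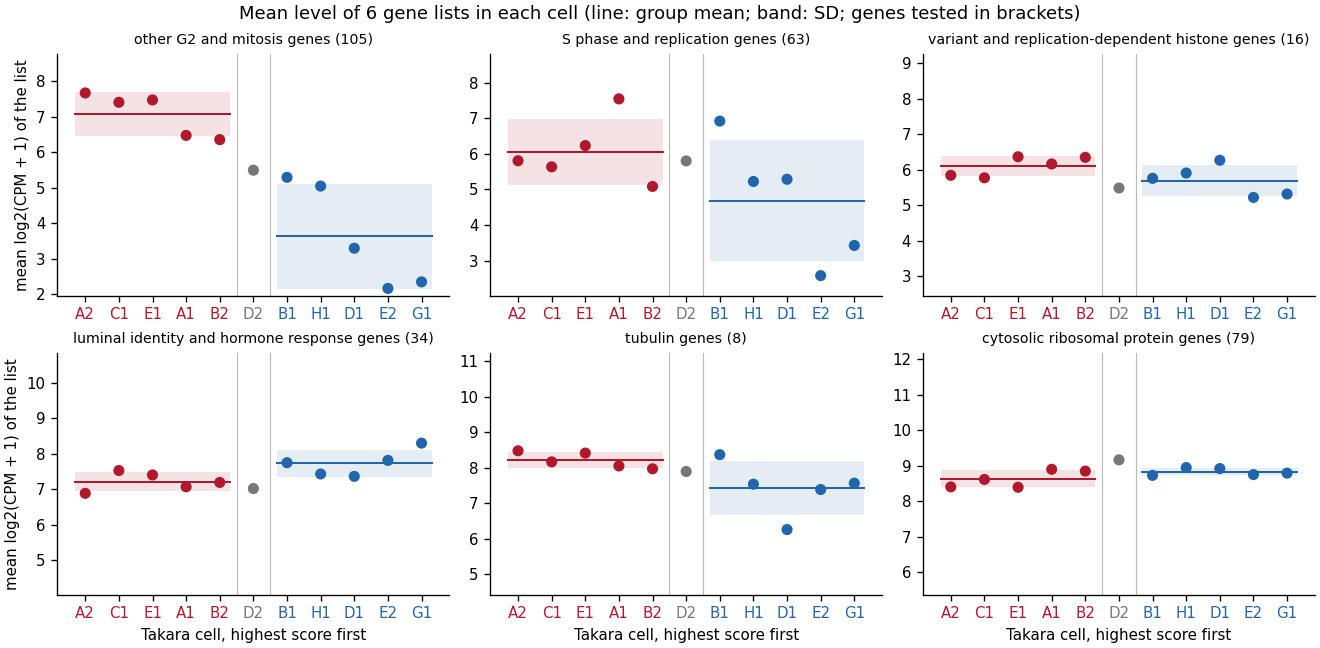
Mean log2(CPM + 1) over the compared genes of 6 lists in each Takara cell, ordered by score, with the group mean as a line and 1 SD to each side as a band (n = 5 cells). G2 and mitosis genes part the groups, while the S phase list peaks in A1 (7.55) and B1 (6.93), 1 cell of each group.

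Genes of S phase and DNA replication overlapped between the groups. Of 69 listed genes 63 were compared and 1 was called higher, a share near the 1.43% of all genes, and none lower. A difference of at least 1 was met by 40, beside 10.7% of all genes, and the median was 1.27. Their mean log2(CPM + 1) was 5.81 in A2, 5.64 in C1, 6.24 in E1, 7.55 in A1 and 5.09 in B2, and 6.93 in B1, 5.23 in H1, 5.29 in D1, 2.58 in E2 and 3.42 in G1. The highest cells were thus A1, of the high group, and B1, of the low group, and the lowest were E2 and G1. Medians by role were 1.51 for the MCM helicase and origin licensing (16 genes), 1.23 for fork proteins and polymerases (24), 1.54 for nucleotide supply (7) and 1.33 for regulators and chromatin assembly (16).

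RRM2, the ribonucleotide reductase subunit that limits the supply of deoxynucleotides, was at 468 CPM in A2, 377 in C1, 1238 in E1, 1211 in A1 and 276 in B2, against 514 in B1, 225 in H1, 26.6 in D1, 1.05 in E2 and 11.9 in G1. GINS2, part of the replicative helicase, was highest in A1 at 916 CPM and B1 at 553 CPM and lowest in E2 at 2.10 CPM. Thymidine kinase TK1 was at 865 to 1384 CPM in high cells, within the span of the low cells, 81.9 CPM in E2 to 1556 CPM in B1. The 1 called gene, RAD51AP1, whose product acts in homologous recombination, was at 23.3 to 49.8 CPM against 10.3 in B1, 21.8 in H1 and 0 in D1, E2 and G1, and differed by 3.58. Leaving B1 out raised the number of called S phase genes to 11.

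Among 14 G1 cyclins, CDK inhibitors and pocket proteins no gene was called, and the median was 0.59. Of 16 histone genes, variant and replication-dependent, none was called, with a median of 0.86. H2AZ1, which encodes the variant H2A.Z, was at 813 to 1185 CPM in high cells and 112 to 871 CPM in low cells, a difference of 1.25 with overlap. Poly(A) libraries read replication-dependent histone transcripts poorly, since most of these lack a poly(A) tail. All 8 tubulin genes lay above 0, with a median of 0.84 and none called. TUBB was at 1030 to 1685 CPM against 432 to 1172 CPM, and TUBA1B at 448 to 646 CPM against 239 to 526 CPM.

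The genes lower in mitotic-high cells were mostly outside the lists. Of 36, all but 1 had a symbol, and of these 35, 34 were protein coding and 2 were on any list used here. PPP1R3B (ENSG00000173281; chromosome 8, 9136255 to 9151574, minus strand), a subunit that brings protein phosphatase 1 to glycogen, was at 4.66 CPM in C1, 1.13 in A1 and 0 in A2, E1 and B2, against 38.2 in B1, 17.8 in H1, 14.2 in D1, 12.6 in E2 and 34.8 in G1. This is 7 reads against 131, 1.31 CPM (0.526 to 2.70) against 23.6 CPM (19.7 to 28.0), and a difference of -3.76, and 4 of the 5 high cells lay under what 3 reads are worth. CUL7, a cullin that scaffolds a ubiquitin ligase, was at 11.6 CPM in C1, 12.4 in A1, 12.6 in B2 and 0 in A2 and E1, against 20.99 to 68.7 CPM. ACSS1, the mitochondrial acetyl-CoA synthetase, was at 0 to 19.2 CPM in high cells and at 75.3 in B1, 32.3 in H1, 57.7 in D1, 19.9 in E2 and 87.8 in G1, so that A1 and E2 nearly met.

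ARFRP1, a small GTPase of the trans-Golgi, was the most even in high cells of the 12 lower genes of largest difference, at 12.2 CPM in A2, 10.1 in C1, 21.4 in E1, 17.0 in A1 and 15.5 in B2 and at 54.6 to 87.0 CPM in low cells (difference -2.05; 15.0 CPM, 11.9 to 18.6, against 65.2 CPM, 58.7 to 72.3). ST6GAL1, a sialyltransferase, was at 0 to 31.8 CPM against 39.9 to 60.1 CPM, and the zinc importer SLC39A10 at 0 to 13.1 CPM against 13.4 to 31.1 CPM. For SLC39A10 the groups parted by less than 1 read. LRRC61, WDR59 (a subunit of the GATOR2 complex in amino acid sensing), ZNF528, SPATA2, C5AR2 (a receptor for complement C5a) and C3orf33 made up the rest, with differences of -3.18 to -1.97. Of the 12 genes 5 overlap a protein-coding gene in the annotation, ARFRP1, CUL7, LRRC61, WDR59 and C3orf33, and the effect on their counts was not tested. Scaled to ERCC reads, 7 of the 36 were still called lower, among them PPP1R3B, CUL7, ARFRP1, ZNF528 and C3orf33, and the other scalings kept 30 (TMM) and 35 (CPM without mitochondrial genes).

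Of 34 luminal identity and hormone response genes compared, 6 lay above 0 and 9 at -1 or less, beside 6.87% of all genes, with a median of -0.38, and 1 was called lower, beside 0.453%. The direction of the list depended on the scaling, since under ERCC scaling 17 of 34 lay above 0 and the median was 0.02. PGR, the progesterone receptor gene (ENSG00000082175; chromosome 11, 101029624 to 101129813, minus strand), was at 48.6 CPM in A2, 109 in C1, 96.1 in E1, 97.3 in A1 and 77.3 in B2, and at 155 in B1, 241 in H1, 296 in D1, 448 in E2 and 142 in G1, a difference of -1.49. KRT19, keratin 19, did not overlap either, at 4848 to 7696 CPM against 9637 to 10558 CPM, but its difference of -0.73 was short of 1. ESR1, the estrogen receptor gene, differed by -1.38, IGFBP5 by -1.98 and TFF1 by -1.25, all 3 with overlapping groups and named after their values were seen. The PGR groups overlapped when scaled to ERCC reads, with a difference of -1.09, and when D2 was added to the low cells, so the call was lost there while the difference stayed past -1.

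Of 20 chaperone and heat shock genes 2 were called higher, beside 1.43% of all genes, with a median of 0.08 over the list. A difference of at least 1 was met by 4, beside 10.7% of all genes, and none lay at -1 or less. HSPA1A, an inducible HSP70 gene, was at 84.9 to 116 CPM in high cells and 20.6 to 57.7 CPM in low cells (1.44), and HSPA1B at 32.6 to 68.6 CPM against 5.54 to 23.1 CPM (1.48). The 2 genes are nearly identical in sequence, so reads that fit both cannot be assigned to either. Their counts are uncertain, and the 2 calls may not be separate observations. Of 12 long noncoding RNAs 1 was called lower, beside 0.453% of all genes. This was SNHG16, at 55.4 to 113 CPM against 143 to 191 CPM, a difference of -1.08, and it overlaps 10 annotated genes. The call for SNHG16 held in 18 of 23 settings and was lost without A1, under ERCC scaling, with a pseudocount of 10 CPM, with 3 against 3 cells and with D2 added to the high cells. No gene was called among 9 immediate early genes (median -0.35), 14 glycolysis genes (-0.13), 21 cholesterol synthesis genes (0.10), 16 mitochondrial genome genes (-0.21) and 79 cytosolic ribosomal protein genes (-0.23), nor for the 2 compared genes of other cell types, COL1A1 and ACTA2. Medians this near 0 carry no direction: under ERCC scaling those of the immediate early, glycolysis and long noncoding lists were 0.02, 0.27 and 0.19. Of the ribosomal protein genes 9 lay above 0. Among the immediate early genes MYC differed by -2.26, with 0 to 28.7 CPM in high cells and 18.2 to 167 CPM in low cells.

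Cell cycle stage was also called with cyclone, which ranks pairs of genes within a cell, after removing every pair that held a score gene. This left 24924 of 25712 pairs for G1, 30815 of 31789 for S and 21904 of 22617 for G2M. The G2M score was 1 in A2, 0.991 in C1 and 0.993 in E1, then 0.283 in B2 and 0.081 in A1, and at most 0.03 in D2 and the low cells. A2 and E1 were called G2M, and the other 9 cells, C1 among them, were called G1. A2, C1 and E1, like every other cell, also had a G1 score of at least 0.7, and with all pairs kept C1 was called G2M. S scores were 0.478 in B1, 0.613 in D1, 0.605 in E2 and 0.251 in G1 and at most 0.034 in the other 7 cells. They did not follow the S phase list. Its mean log2(CPM + 1) was lowest in E2 (2.58) and highest in A1 (7.55), whose S score was 0.034. By this measure 3 cells of the high group had G2M scores near 1 and the other two, A1 and B2, did not.

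Cells of the 2 other protocols of the series, G&T and NEB, were scored with the same 8 genes and set 5 highest against 5 lowest in the same way. These were other cells of the same line and passage, so the Takara values did not choose them, though the rule that did is the same. Scores were 8.63 to 9.68 in high and 4.49 to 6.36 in low G&T cells, and 5.07 to 10.17 and 1.34 to 4.29 in NEB cells. Of the NEB high cells 2 stood well above the rest, at 10.17 and 9.57, and the other 3, at 5.58, 5.20 and 5.07, lay close to the middle cell at 4.76 and below Takara low cells B1 and H1, so the NEB groups part less cleanly. The G2 and mitosis list had a median difference of 2.97 in G&T and 2.67 in NEB cells, beside 3.59 for Takara. For the S phase list it was 1.47 and 0.26, beside 1.27, and for the luminal list 0.34 and -0.42, beside -0.38. The median over all genes compared was 0.39 and 0.01, beside -0.01, so differences in G&T cells lean upward and are read against that shift.

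Of the 114 genes called higher in Takara cells, 112 were compared in G&T cells, and 108 of these (96.4%) were above 0 there, beside 65.7% of the 7263 genes compared in both. A difference of at least 1 was met by 95 (84.8%), beside 26.5%, and 38 passed the full rule, beside 1.89%. In NEB cells 90 were compared, and 81 (90.0%) were above 0, beside 51.3% of 5510 genes, 66 (73.3%) differed by at least 1, beside 27.9%, and 5 passed the full rule, beside 0.454%. Of the genes outside every list used here, 52 of 56 compared in G&T cells (92.9%) and 35 of 42 in NEB cells (83.3%) were above 0. CCNA2 differed by 5.28 in G&T and 5.30 in NEB cells, and CENPA by 4.28 in G&T cells.

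Of the 36 lower genes, 34 were compared in G&T cells and 20 (58.8%) were below 0 there, beside 34.3% of all genes, 12 (35.3%) by at least 1, beside 7.93%, and 1 by the full rule, RRS1, beside 0.688%. In NEB cells 12 of 16 (75.0%) were below 0, beside 48.6%, 6 (37.5%) by at least 1, beside 23.8%, and 1 by the full rule, SNHG16, beside 0.272%. PPP1R3B differed by -3.41 in G&T and -1.91 in NEB cells. ARFRP1 differed by 2.17 in G&T cells, in the opposite direction, and PGR by 1.47 in G&T and -0.91 in NEB cells.

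**Figure D5:**
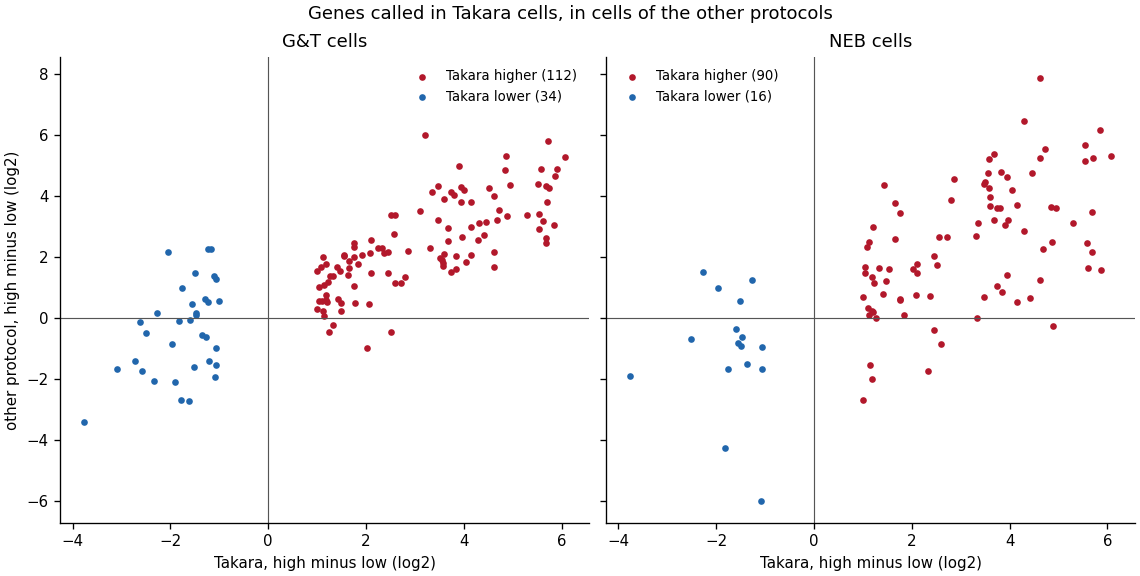
Difference between high-score and low-score cells in mean log2(CPM + 1) for the genes called in Takara cells (horizontal) against the difference in G&T cells (left, 112 higher and 34 lower genes) or NEB cells (right, 90 and 16). Most of the higher genes lie above 0 in both panels (108 of 112 and 81 of 90). The lower genes lie on both sides of 0 in G&T cells, with 20 of 34 below 0 (58.8%, beside 34.3% of all genes compared in both).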

How the data were processed

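Read counts per gene were used for 11 of 13 Takara cells, and for 11 G&T and 11 NEB cells. The authors deposited raw counts per gene, taken by STAR from trimmed reads (Trim Galore) on GRCh38, for 60279 genes and 92 ERCC spike-ins, with no normalization and no molecular identifiers. The strand setting and annotation release are not given in the sources used here. Wells C2 and F1 fell below the study's quality limits. Sorting removed doublets, and no doublet caller was run.

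CPM was computed over reads on genes and 1 CPM added before log2. Genes needed a mean of 10 CPM over 11 cells. Each cell was 1 sample of 1 cell line and the groups were cut from a readout, so no p-value was computed. Pooled values carry 95% exact Poisson intervals. Differences are high minus low.

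Named genes are the 8 score genes, the 12 largest called differences in each direction, the called genes of each list and its 4 most abundant genes, and the markers. Members, lists and rules were chosen with earlier results of these data known. Symbols and coordinates came from GENCODE 44, matched for 56104 genes, and promoters from RefSeq (the first listed start). The rule was run on simulated Poisson counts around a shared profile. These lack the spread between cells, so the run gives no rate of false calls for these data.

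Alternatives were TMM factors, ERCC scaling, CPM without mitochondrial genes, pseudocounts, summed reads, filters, group cuts, thinning and leaving out each cell. Python 3.11.15 with numpy 2.4.6, pandas 2.3.3 and scipy 1.17.1, and R 4.3.3 with scran 1.30.0 and edgeR 4.0.16, were used.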

Additional observations from a re-analysis of the deposited data

Results flagged for a closer look

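In each group of 5 cells the highest or lowest value was called outlying when its gap to the next cell, divided by the range of the group, passed 0.71 (Dixon's limit). Of 108 sets of 5 values examined, 12 (11.1%) had such a cell, and low cell B1 was the cell in 4. For values not chosen in any way chance gives about 1 in 20, but many of these belong to genes that chose the groups or were named for their difference, so the count cannot be read against that rate.

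B1 stood apart from the other low cells in reads on no annotated feature (gap 0.790 of the range; 7.27% against at most 3.08%), in unmapped reads (0.902; 5.29% against at most 2.48%), in the mean log2(CPM + 1) of the glycolysis list (0.779; 9.04 against 8.74 to 8.81) and in CDK1 (0.822; 215 CPM). Among high cells, B2 was low in CDK1 (0.769; 40.6 CPM), and A1 was low in CCNB1 (0.815; 304 CPM) and CCNB2 (0.806; 88.2 CPM). These 3 genes are part of the score.

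Among the low cells, D1 was the only one with PSRC1 reads (1; 1.78 CPM) and H1 the only one with CENPA reads (1; 4.85 CPM), where the gap is 1 because the other 4 low cells were at 0, and each rests on few reads. ACSS1 was at 0 in high cell A2 (0.7101), WDR59 was lowest in low cell E2 (0.733; 15.7 CPM) and C3orf33 was highest in low cell G1 (0.812; 23.7 CPM).

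Well C2, left out with 91.3% of its reads on ERCC spike-ins, held 6 reads of the score genes among 15325 on genes, or 392 CPM, above the limit of 196 CPM that a count of 0 sets in so small a library. Well F1 held 1 such read among 7990.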

How the results depend on the processing

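No paired analysis was possible because the groups were cut from a readout, share no replicate numbers and carry no test. The number of genes called higher, 114, was 63 with the middle cell added to the high cells, 75 with it added to the low cells and 595 with the 3 highest against the 3 lowest cells. The number called lower, 36, was 20, 20 and 303 under these settings and 7 under ERCC scaling. Leaving out 1 cell gave 122 to 193 higher genes and 57 to 72 lower genes, since fewer cells overlap less. The median difference of the G2 and mitosis genes, 3.59, was 2.30 with a pseudocount of 10 CPM, 5.10 with the 3 highest against the 3 lowest cells and 3.21 to 4.08 without 1 cell. That of the S phase genes, 1.27, was 0.75 with reads summed over the cells of a group, 0.87 with a pseudocount of 10 CPM, 1.92 with the 3 highest against the 3 lowest cells and 0.89 to 1.70 without 1 cell. The difference in genes detected per cell, 132, was -1.85 to 306 without 1 cell, the former without D1, so its direction rests on that cell. Of the group results, 46 of 55 values under the other alternatives stayed within the allowed spread, as did 45 of 60 without 1 cell (14 moved and 1 reversed), and of single genes and lists 1617 of 1729. No called gene changed sign, but uncalled genes and 4 lists near 0 did: under ERCC scaling the medians of the luminal, immediate early, glycolysis and long noncoding lists turned from below to above 0, and the median difference of immediate early genes was also 0.41 with the 3 highest against the 3 lowest cells. Under ERCC scaling 81 of the 114 higher and 7 of the 36 lower genes kept their call. Lower genes at 10 to 30 CPM rest on few reads a cell, which limits them.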

Other observations

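Of the 114 higher genes, 58 were outside every list used here, and those named in this paragraph were chosen after their values were seen. Several act in mitosis too. PIMREG, a regulator of the metaphase to anaphase step, differed by 5.52, KNSTRN, an adaptor of the kinetochore and spindle, by 4.45, PRR11 by 4.30, the kinesin gene KIF15 by 3.91 and CENPU, of the inner kinetochore, by 3.74. Others were STAG1, a cohesin subunit (1.91), PCNT, the scaffold of the pericentriolar material (1.76), UBE2T, the ubiquitin-conjugating enzyme of the Fanconi anemia pathway (2.33), and DTYMK, thymidylate kinase (1.33). PRR11 was also higher by the full rule in both other protocols (3.13 in G&T and 6.46 in NEB cells), whereas UBE2T differed by 2.30 in G&T and -1.74 in NEB cells.

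Of the lower genes, 33 with a symbol were outside every list. RRS1 (-1.79) and UTP20 (-1.56) act in ribosome assembly, POLR3D (-1.61) is a subunit of RNA polymerase III, RIF1 (-1.83) sets replication timing and BHLHE40 (-1.48) is a transcription factor, and they too were chosen after their values were seen. Genes that did not overlap between the groups while differing by less than 1 numbered 25 higher and 32 lower, which brings the genes without overlap to 139 (1.75%) and 68 (0.855%).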
